A study of Rattus norvegicus with 20 samples.

Results

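The subject is the well-expressed long noncoding RNA genes of cultured heart cells from newborn rats. A gene was taken when the deposited annotation labelled it lncRNA or lincRNA and its mean over all 20 libraries was at least 1 FPKM (fragments per kilobase scaled to sequencing depth, a level per length). Of 886 such labelled genes among 15503 in the table, 460 reached that level, and the 300 with the highest mean were kept. They were chosen by the mean of the 20 libraries, so their being well expressed is no result. The lowest genes kept were ENSRNOG00000069488 at 2.78 FPKM, ENSRNOG00000070850 at 2.775 FPKM and ENSRNOG00000070018 at 2.764 FPKM, and the next below were ENSRNOG00000070554 at 2.759 FPKM, ENSRNOG00000063513 at 2.721 FPKM and ENSRNOG00000068999 at 2.713 FPKM. None of the 300 carried a gene symbol in the files, so they are given by their Ensembl IDs and by the protein-coding gene that lies nearest.

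Neonatal rat cardiomyocytes, the beating muscle cells of the newborn heart, had been held for 72 h with histidine at 100 nM plus doxorubicin at 1 µM, with doxorubicin at 1 µM, with histidine at 100 nM, or with PBS (phosphate-buffered saline), 5 libraries in each of the 4 groups. No other agent or genotype is given in the labels. Doxorubicin, an anthracycline used against tumours, poisons topoisomerase II and harms the heart. Histidine is an amino acid. No label says whether the 5 libraries of a group were grown as separate cultures, so the tests speak of the spread among these libraries, part of which may be technical.

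Long noncoding RNAs are transcripts without a long reading frame. Some stay at the site where they are made and act on neighbouring genes, some build nuclear bodies or bind small RNAs and proteins, and some are known as hosts whose introns yield small nucleolar RNAs. Their genes lie between coding genes, beside the end of one, or head to head with one, where a pair of genes is read outward from neighbouring starts.

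Total reads per library ran from 53246205 to 83624651, and the 300 genes held 1.07% of all reads. Doxorubicin replicate 4 stood apart: 37 of the 300 genes lay over 2-fold from the mean of the other doxorubicin libraries, against 4 to 10 genes in each of the other 19 libraries, and its FPKM values summed to 517265, against 373417 to 398545. The main counts are also given without it. Most markers of macrophages and of cardiomyocytes fell with the drug. The summed level of 13 macrophage and leukocyte markers was 49.2 to 64.1 CPM (reads scaled to library depth) with both compounds and 49.8 to 78.4 CPM with doxorubicin, against 1920 to 2560 CPM with histidine and 1970 to 2110 CPM with PBS. All 13 were called lower with doxorubicin against PBS, beside 21.5% of all genes tested. Of the 13, 2 had 0 reads in at least 1 library. The summed level of 16 cardiomyocyte markers was 193 to 331 CPM with doxorubicin and 1110 to 1270 CPM with PBS, and 14 of them fell. In both groups this was far below the summed level of 16 fibroblast markers, 72200 to 105000 CPM with doxorubicin and 109000 to 115000 CPM with PBS, so the libraries held much RNA of fibroblast genes beside that of the labelled cell type. In such bulk samples, fewer cells of a type and less RNA per cell cannot be told apart, and the part of these shifts in the changes below was not tested.

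The 300 genes were spread over 21 chromosomes, and most had 1 exon. Exon structure was not given directly; the exonic length was worked out from the ratio of reads to FPKM, and a gene whose exonic length was at least 95% of its span was taken to have 1 exon. On that measure 197 of 300 genes (65.7%) had 1 exon, against 31.9% of the other 586 long noncoding RNA genes and 4.22% of the coding genes. The exonic length had a median of 1908 bases, with the shortest at 381 and the longest at 18735. The middle of the 300 mean levels was 8.0 FPKM, and that of the other 586 long noncoding RNA genes was 0.552 FPKM. It was 6.59 FPKM for all 14326 coding genes. The 300 were chosen by this level and the coding genes were not, so these medians do not compare the classes. The 10 highest genes supplied 28.8% of the summed FPKM of the 300.

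Most of them lay just past the end of a coding gene. Within 5 kb, 106 of the 300 lay downstream of a coding gene on its strand and 91 lay tail to tail, that is, past the end of a coding gene on the opposite strand. Together these made 197 genes (65.7%), against 29.7% of the other 586, and 155 of the 197 had 1 exon. A further 21 lay upstream of a coding gene on its strand, 15 lay head to head, and 67 had no coding gene within 5 kb. Head to head genes made 5.0% of the 300 and 23.4% of the other 586. No long noncoding RNA gene of the table overlapped a coding gene on either strand, but 56 of the 300 overlapped another long noncoding RNA gene on the opposite strand, among them 17 pairs in which both were well expressed. The library preparation did not keep the strand, so the reads of such pairs cannot be told apart.

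**Figure D1:**
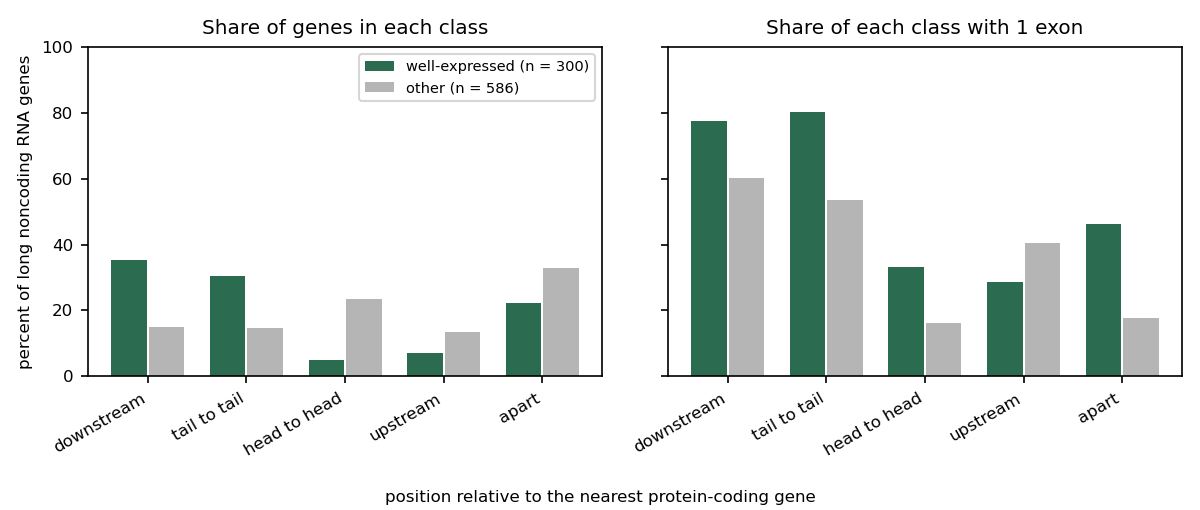
Percent of long noncoding RNA genes in each position relative to the nearest protein-coding gene (left) and percent of each class with 1 exon (right), for the 300 well-expressed genes and the other 586. The downstream and tail to tail classes hold 106 and 91 of the 300.

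The median level of the 300 genes was 8.29 FPKM with both compounds, 8.04 FPKM with doxorubicin, 7.87 FPKM with histidine and 7.58 FPKM with PBS. Their share of all reads averaged 1.12% ± 0.0297 with both compounds, 1.11% ± 0.0436 with doxorubicin, 1.04% ± 0.0261 with histidine and 1.03% ± 0.0302 with PBS (SD, n = 5 each). In 299 of the 300 the mean was at least 1 FPKM in every group. The typical gene differed 2.23-fold between its highest and lowest library, 106 genes stayed within 2-fold over all 20 libraries, and 13 spanned more than 10-fold. Some wide spans lay inside a group. ENSRNOG00000063951 held 0 reads in PBS replicate 4 and 4391 in PBS replicate 5, where the overlapping ENSRNOG00000063350 held 5067 and 4391. ENSRNOG00000064211 held 18 reads in doxorubicin replicate 1 and 2228 in doxorubicin replicate 3.

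ENSRNOG00000068880 was the highest, with 226, 239, 257, 227 and 216 FPKM with both compounds, 243, 275, 308, 389 and 279 FPKM with doxorubicin, 249, 266, 316, 273 and 257 FPKM with histidine, and 251, 243, 317, 271 and 248 FPKM with PBS. The groups overlapped, and the gene did not pass the test for doxorubicin against PBS (log2 fold change 0.13 ± 0.12 SE, adjusted p = 0.398 by edgeR's quasi-likelihood test). It lies at chr5:111671879-111673171 (build mRatBN7.2, minus strand) with no coding gene within 5 kb.

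The next highest gene, ENSRNOG00000053452 at chr3:72977767-72979694, fell with the drug. It stood at 176, 176, 182, 135 and 177 FPKM with doxorubicin, against 235, 223, 233, 240 and 224 FPKM with PBS. No doxorubicin library reached a PBS library, and the fitted log2 fold change was -0.50 ± 0.05 (SE; adjusted p = 1.31e-07). The same gene held 162, 168, 169, 166 and 161 FPKM with both compounds, against 214, 219, 238, 237 and 241 FPKM with histidine, again without overlap (-0.53, adjusted p = 6.9e-08).

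Ranks 3 and 4 were an overlapping pair on opposite strands, ENSRNOG00000063787 and ENSRNOG00000071138 on chromosome 10, 4962 and 4955 bases past the end of Cavin1, which codes for a coat protein of caveolae. The first held 172, 178, 155, 144 and 179 FPKM with doxorubicin, against 138, 138, 136, 133 and 133 FPKM with PBS, and rose by 0.24 on the log2 scale (adjusted p = 0.00477). The second averaged 151 ± 18.7 FPKM with doxorubicin and 120 ± 7.51 FPKM with PBS (SD, n = 5 each) and rose by 0.28 (adjusted p = 0.0154), while Cavin1 itself rose by 0.28 (adjusted p = 0.00224). Rank 5, ENSRNOG00000064142, lies 1942 bases downstream of Col8a1, a collagen gene of the vessel wall. It averaged 145 ± 15.0 FPKM with doxorubicin and 108 ± 15.9 FPKM with PBS, and its log2 rise of 0.38 (adjusted p = 0.00538) stood beside one of 0.37 for Col8a1 (adjusted p = 0.000346).

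Among the other genes of the top 10, ENSRNOG00000052564 rose and is described below, and ENSRNOG00000050922 fell by 0.57 (adjusted p = 0.0194) and ENSRNOG00000021403 fell by 0.28 (adjusted p = 0.0021). The fall of ENSRNOG00000050922 no longer passed the test without PBS replicate 1 (adjusted p = 0.0519) or without doxorubicin replicate 5 (adjusted p = 0.0524). ENSRNOG00000065096, downstream of Mlec (a lectin of the endoplasmic reticulum), held 100 ± 18.4 FPKM with doxorubicin and 89.6 ± 0.932 FPKM with PBS and was not called (log2 fold change 0.10, adjusted p = 0.315), but passed the test without doxorubicin replicate 4 (0.19, adjusted p = 0.00122). ENSRNOG00000066854 was likewise not called, with 68.6, 76.6, 59.9, 225 and 84.2 FPKM with doxorubicin, against 85.6, 82.1, 84.3, 94.2 and 91.0 FPKM with PBS. Its highest value came from doxorubicin replicate 4; the log2 fold change was 0.23 with that library and -0.35 without it (adjusted p = 0.0496).

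**Figure D2:**
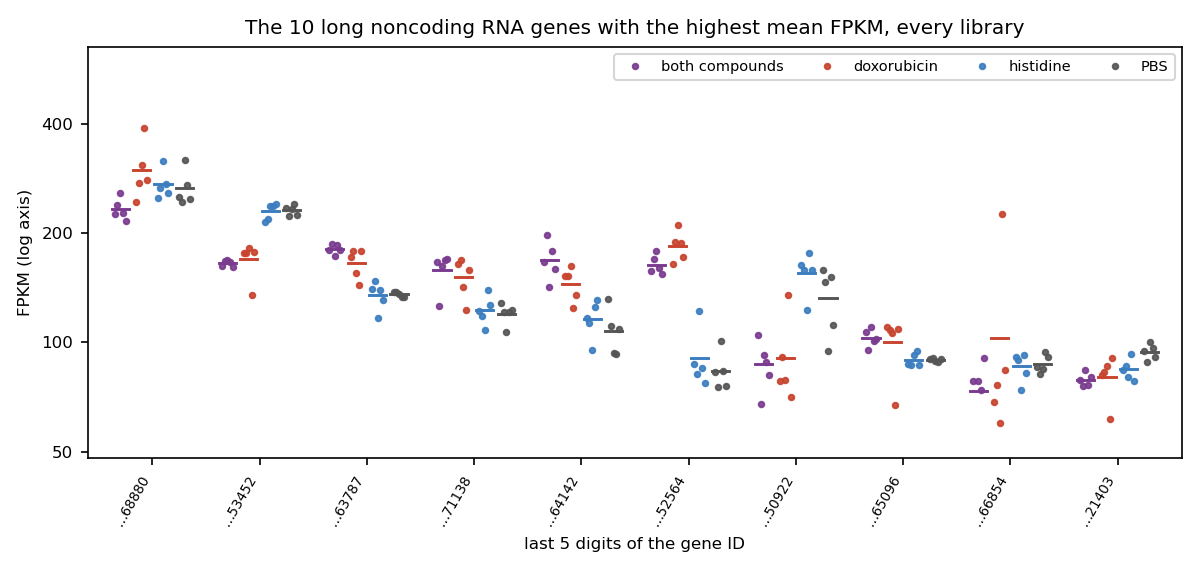
FPKM on a log axis of the 10 genes with the highest mean, named by the last 5 digits of their IDs. Each point is a library and each bar a group mean over 5 libraries; for ENSRNOG00000053452 the drug groups lie at 135 to 182 FPKM, below all libraries with histidine or PBS.

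The share of these genes that changed with doxorubicin was near that of genes in general. Against PBS, 67 of the 300 were higher and 53 lower (adjusted p under 0.05 over all genes tested), which is 40.0%; of all 15449 genes tested, 43.2% were called, 21.7% higher and 21.5% lower. Both compounds against histidine called 85 higher and 39 lower, 41.3% of the 300, against 40.2% of all genes, 19.9% higher and 20.3% lower. Without doxorubicin replicate 4, the first comparison called 87 higher and 56 lower, 47.7% of the 300 beside 47.2% of all genes, and the second called 96 higher and 53 lower, 49.7% beside 49.1%. With library totals in place of TMM scaling, doxorubicin against PBS called 77 higher and 45 lower. Both compounds against histidine then called 90 higher and 34 lower. Large changes were fewer: 24 of the 300 (8.0%) were called with more than a 2-fold difference between doxorubicin and PBS, beside 15.2% of all genes. The median log2 fold change was 0.08 over the 300 and 0.05 over all genes. The FPKM values of doxorubicin and PBS did not overlap for 74 of the 300 (24.7%), beside 30.3% of all genes, and those of both compounds and histidine for 117 (39.0%), beside 35.8%.

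The drug comparison made with histidine present and the one made without it share no library. They called 93 of the 300 genes (31.0%) in the same direction, 56 higher and 37 lower, and 0 in opposite directions; of all genes tested, 31.6% were called in the same direction in both. Over the 300 genes the log2 fold changes of the 2 comparisons had a Pearson correlation of 0.87, beside 0.91 over all genes, given as a description across genes that are not independent.

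**Figure D3:**
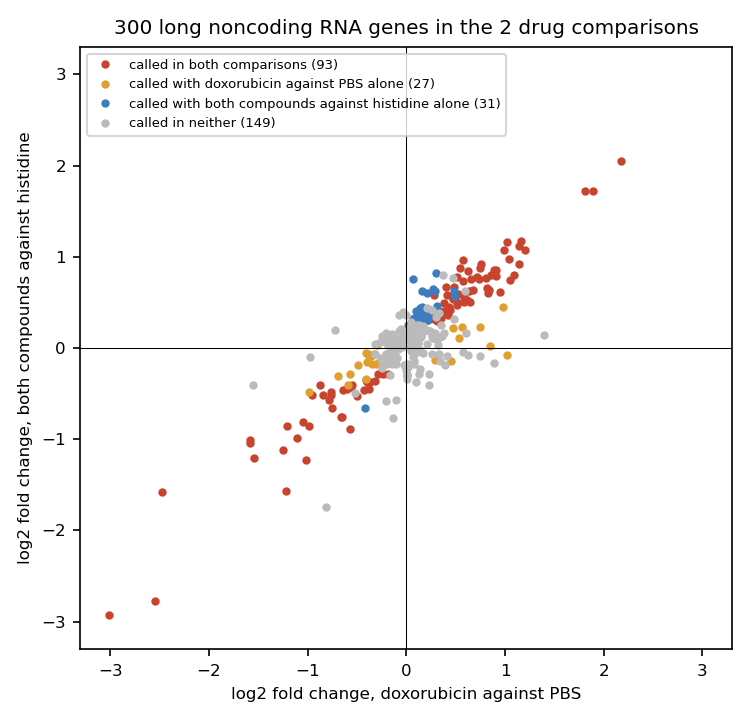
Log2 fold change of each of the 300 genes with doxorubicin against PBS (x axis) and with both compounds against histidine (y axis), coloured by which comparison called it. The 93 genes called in both lie to the lower left and the upper right.

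The largest rise was at Pappa, which codes for a protease that cuts binding proteins of insulin-like growth factors. Past its end lie 2 overlapping genes on opposite strands, so their reads cannot be told apart. ENSRNOG00000063319 held 19, 20.1, 25.2, 5.71 and 15.2 FPKM with doxorubicin, against 3.69, 2.56, 5.39, 3.18 and 3.01 FPKM with PBS. ENSRNOG00000066444 held 30.8, 37.2, 55.1, 17.4 and 31.7 FPKM with doxorubicin, against 7.99, 7.64, 12.0, 8.09 and 8.47 FPKM with PBS. In each, all doxorubicin libraries exceeded all PBS libraries, with replicate 4 the lowest of the drug group. Their log2 fold changes were 2.18 ± 0.30 and 1.89 ± 0.25 (SE; adjusted p = 5.52e-06 and 2.92e-06), and that of Pappa was 2.04 ± 0.30 (adjusted p = 1.52e-05). Pappa held 29.3, 43.1, 61.1, 22.7 and 45.0 FPKM with doxorubicin, against 7.46, 5.42, 14.5, 10.5 and 8.83 FPKM with PBS, and replicate 3 was the highest library for all 3 genes in both of these groups.

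ENSRNOG00000064855, 522 bases downstream of a histone H2B gene, held 3.74, 5.07, 4.87, 3.02 and 4.42 FPKM with doxorubicin, against 1.36, 0.971, 0.977, 1.09 and 1.39 FPKM with PBS. The groups were well apart, and its log2 rise of 1.81 ± 0.16 (adjusted p = 2.26e-08) stood beside 1.82 for the histone gene. ENSRNOG00000068991, 951 bases downstream of Megf9, a membrane protein with EGF-like repeats, rose by 1.16 ± 0.11 (adjusted p = 2.39e-08), and Megf9 rose by 1.05 (adjusted p = 2.25e-08). ENSRNOG00000068084, downstream of the signalling ligand Wnt4, averaged 4.26 ± 0.754 FPKM with doxorubicin and 1.99 ± 0.545 FPKM with PBS, a log2 rise of 1.04 (adjusted p = 0.00017) beside 0.62 for Wnt4 (adjusted p = 0.00482).

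ENSRNOG00000052564 joined a high level to a large rise. It held 164, 189, 211, 188 and 172 FPKM with doxorubicin, against 82.7, 75.6, 101, 83.2 and 76.0 FPKM with PBS, and 157, 170, 178, 160 and 154 FPKM with both compounds, against 87.2, 82.0, 122, 84.8 and 77.4 FPKM with histidine. The drug groups lay above the others throughout. The log2 fold changes were 1.09 ± 0.11 against PBS (adjusted p = 1.08e-07) and 0.80 ± 0.11 against histidine (adjusted p = 7.21e-06). Its end lies 23 bases from the end of Tnip1, whose protein binds TNFAIP3 and restrains NF-kB signalling, at chr10:39028570-39037035. Tnip1 rose by 0.30 against PBS (adjusted p = 0.0242) and was not called with both compounds against histidine (0.08, adjusted p = 0.61). The ratio of the 2 levels within a library was 2.84 to 4.03 with doxorubicin and 1.70 to 2.14 with PBS, without overlap. ENSRNOG00000067610, which overlaps it on the other strand, rose by 0.91.

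The remaining large rises were ENSRNOG00000070543, ENSRNOG00000069488, ENSRNOG00000070404 and ENSRNOG00000070065. The first, with no coding gene within 5 kb, averaged 7.44 ± 2.36 FPKM with doxorubicin and 3.23 ± 0.927 FPKM with PBS. ENSRNOG00000069488, 9050 bases from Has2 (a hyaluronan synthase), rose by 1.05 (adjusted p = 0.000675), beside 1.14 for Has2. ENSRNOG00000070065, 8890 bases from Vcan (versican, a matrix proteoglycan), rose by 0.95 (adjusted p = 2.75e-06), beside 0.59 for Vcan.

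The largest fall was that of ENSRNOG00000052649 on chromosome 2, with 1.28, 0.894, 0.645, 1.17 and 0.349 FPKM with doxorubicin, against 6.19, 3.93, 6.52, 6.48 and 6.98 FPKM with PBS. Every drug library was lower than every PBS library, and the log2 fold change was -3.01 ± 0.33 (SE; adjusted p = 2.66e-07). With both compounds it held 0.252 to 1.35 FPKM, against 4.66 to 8.94 FPKM with histidine. It is the sole one of the 300 with a group mean under 1 FPKM, 0.952 with both compounds and 0.868 with doxorubicin. The coding gene 4696 bases upstream of it, unnamed in the files, went the other way (2.26, adjusted p = 0.0013). That coding gene was undetected in at least 1 library. ENSRNOG00000008450, with no coding gene within 5 kb, held 1.28, 1.29, 2.04, 0.344 and 1.83 FPKM with doxorubicin, against 8.41, 7.11, 7.69, 6.63 and 7.95 FPKM with PBS, a log2 fold change of -2.55 ± 0.35 (adjusted p = 6.24e-06). Its drug libraries, too, lay wholly below.

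Another steep fall lay beside Myocd, whose product myocardin switches on genes of heart and smooth muscle. ENSRNOG00000067151, 857 bases downstream of it, held 1.53, 1.61, 0.525, 0.632 and 1.04 FPKM with doxorubicin, against 7.49, 7.28, 3.74, 4.37 and 5.47 FPKM with PBS. Myocd held 1.30, 1.37, 0.736, 0.901 and 1.24 FPKM with doxorubicin, against 4.88, 6.43, 3.51, 4.82 and 5.53 FPKM with PBS. Neither gene's groups overlapped, replicate 3 was the lowest doxorubicin library and the lowest PBS library for both genes, and the log2 fold changes were -2.47 ± 0.30 (adjusted p = 1.21e-06) and -2.23 ± 0.21 (adjusted p = 4.21e-08). With both compounds against histidine they were -1.58 and -1.53.

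In 6 more of the largest falls the nearest coding gene fell as well. ENSRNOG00000065676, downstream of Fbxo32 (a ubiquitin ligase of muscle wasting), averaged 3.94 ± 1.07 FPKM with doxorubicin and 11.1 ± 0.650 FPKM with PBS, and its log2 fold change of -1.54 stood beside -1.51 for Fbxo32. ENSRNOG00000068207, downstream of Npr3 (the clearance receptor of natriuretic peptides), averaged 22.3 ± 4.89 FPKM with doxorubicin and 49.9 ± 2.87 FPKM with PBS, and its log2 fold change of -1.21 stood beside -1.29 for Npr3. ENSRNOG00000067163, tail to tail with Vldlr (a lipoprotein receptor), changed by -1.58, beside -1.53 for Vldlr. ENSRNOG00000062503, 25 bases past the end of Gpc6 (a glypican of the cell surface), changed by -1.58, beside -1.63 for Gpc6. ENSRNOG00000066793 at Pag1 and ENSRNOG00000064176 at Rcan3 (a regulator of calcineurin) had log2 fold changes of -1.25 and -1.11, beside -1.44 and -1.08. All 6 and their coding genes passed the test, with adjusted p from 7.82e-09 to 7.91e-05. ENSRNOG00000010918, with no coding gene within 5 kb, fell by 1.22 (adjusted p = 6.7e-05).

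**Figure D4:**
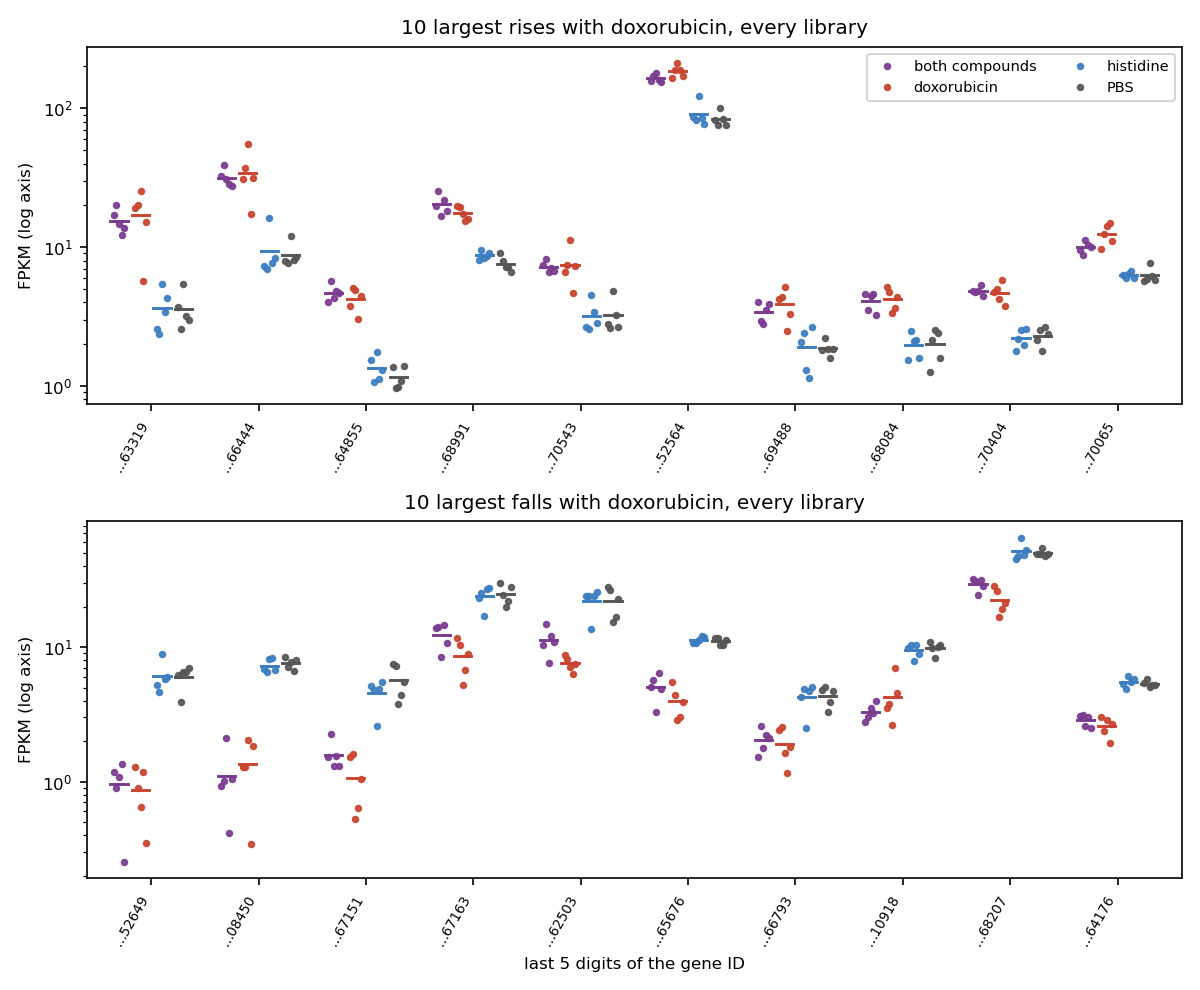
FPKM on a log axis of the 10 largest rises (top) and the 10 largest falls (bottom) with doxorubicin against PBS, in every library; bars are group means over 5 libraries. The libraries with both compounds and with doxorubicin are plotted left of those with histidine and PBS, with doxorubicin replicate 4 at 5.71 FPKM nearest to the PBS values of ENSRNOG00000063319.

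This likeness to the neighbouring coding gene was common at the ends of coding genes. For the 197 genes past such an end, the log2 fold changes of gene and neighbour with doxorubicin against PBS had a rank correlation of 0.64 and a Pearson correlation of 0.49, described over pairs that share all 20 libraries and rest on 186 distinct coding genes. In 66 pairs both genes were called, 64 of them in the same direction (97.0%). The exceptions were ENSRNOG00000052649, above, and ENSRNOG00000063406 beside Adamtsl4 (0.46 against -0.27). The difference in log2 fold change within a pair had a median size of 0.13, and the median ratio of the levels was 0.945, with 137 of 197 pairs within 2-fold. With both compounds against histidine the rank correlation was 0.71, and 64 of 67 called pairs went the same way.

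Neighbouring coding genes within 5 kb of each other gave a measure of the background. Of those lying tail to tail, 203 pairs were both called with doxorubicin against PBS and 115 (56.7%) had the same direction, with a rank correlation of 0.08 over 996 pairs. Of those on the same strand, 130 of 234 pairs (55.6%) had the same direction, with a rank correlation of 0.10 over 1244 pairs. Of those lying head to head, 88 of 128 pairs (68.8%) had the same direction, with a rank correlation of 0.15 over 812 pairs.

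The likeness was closer for genes with 1 exon, a difference that was not tested. For the 155 of them past a coding gene's end the rank correlation was 0.80 and the Pearson correlation 0.84, and 53 of 54 called pairs had the same direction. For the 42 with more than 1 exon the rank correlation was 0.10, and 11 of 12 called pairs had the same direction; with both compounds against histidine the rank correlations were 0.80 for the 155 and 0.37 for the 42. Deviations of single libraries from their group mean ran together as well: over the 197 pairs the median correlation across 20 libraries was 0.41, and 0.24 without doxorubicin replicate 4. It was 0.02 and 0.03 for the 67 genes with no coding gene within 5 kb.

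For those 67 genes the nearest coding gene, at a median of 23800 bases, gave a rank correlation of 0.14 with doxorubicin against PBS, and 11 of 13 called pairs had the same direction. Of the 67, 28 (41.8%) were called, 15 higher and 13 lower, so the share called was near the 43.2% of all genes here as well. For the 21 genes upstream of a coding gene the rank correlation was 0.45.

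**Figure D5:**
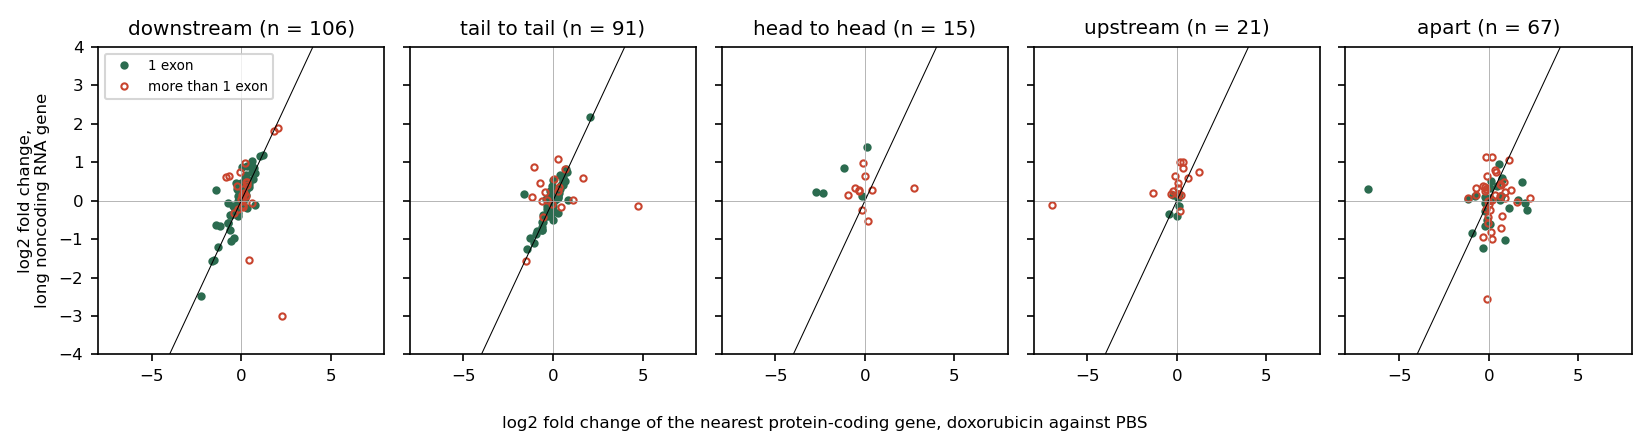
Log2 fold change with doxorubicin against PBS of each of the 300 genes (y axis) against that of its nearest protein-coding gene (x axis), by position; the line marks equal change. Points of the downstream (n = 106) and tail to tail (n = 91) classes with 1 exon lie along the line, while head to head and apart classes scatter.

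The 15 genes head to head with a coding gene differed from those past a coding gene's end. With doxorubicin against PBS 5 of the 15 were called, all 5 higher (33.3%, beside 21.7% of all genes called higher), and the rank correlation with the neighbour was 0.16. The call of 1 of the 5, ENSRNOG00000068751 beside Klhl12 (0.64, adjusted p = 0.0312), was lost without doxorubicin replicate 4 (0.27, adjusted p = 0.15), without PBS replicate 2 (adjusted p = 0.071) or without PBS replicate 5 (adjusted p = 0.063). The ratio of the 2 levels within a library, which is free of scaling between libraries, did not overlap between doxorubicin and PBS in 7 of the 14 head to head pairs with a ratio in every library. The share was 7.18% of 195 pairs at the ends of coding genes, 23.8% of 21 pairs upstream and 24.6% of 61 pairs apart. With both compounds against histidine the ratio likewise did not overlap in 7 of the 14 head to head pairs. The shares were then 6.15% at the ends of coding genes, 28.6% upstream and 42.6% apart. The contrast with the pairs apart was thus smaller in that comparison. The 7 genes of the head to head pairs without overlap between doxorubicin and PBS are described next. They were chosen after their values were seen, and whether the pairs differ as a class was not tested.

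In 3 of these pairs the starts lie within 300 bases in the deposited annotation and the coding gene has a promoter entry. For these, the stretch from 250 bases before to 50 after the coding gene's start in RefSeq (rat build GRCr8) is shown. Capitals mark any match, on either strand, to the CCAAT box, the GC box (letters GGGCGG), the TATA box (letters TATAAA) or the half-site bound by p53. Of 33469 promoters of the same length, 37.5% hold the CCAAT box, 33.1% the GC box, 14.2% the TATA box and 7.98% a p53 half-site. The start in RefSeq was not matched to the start in the deposited annotation, which uses another build. Whether a stretch lies between the starts of both genes is therefore not known. Cdkn1a is at chr20:7150682-7150981, plus strand, Rcc1 at chr5:149828382-149828681, minus strand, and Slc3a2, at the outermost of its starts, at chr1:215048015-215048314, minus strand.
Cdkn1a: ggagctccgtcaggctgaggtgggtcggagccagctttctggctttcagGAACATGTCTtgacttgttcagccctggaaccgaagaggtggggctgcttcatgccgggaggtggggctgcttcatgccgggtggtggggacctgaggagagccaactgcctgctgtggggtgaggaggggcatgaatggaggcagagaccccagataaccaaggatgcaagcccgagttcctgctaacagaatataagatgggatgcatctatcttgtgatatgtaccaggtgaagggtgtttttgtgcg
Rcc1: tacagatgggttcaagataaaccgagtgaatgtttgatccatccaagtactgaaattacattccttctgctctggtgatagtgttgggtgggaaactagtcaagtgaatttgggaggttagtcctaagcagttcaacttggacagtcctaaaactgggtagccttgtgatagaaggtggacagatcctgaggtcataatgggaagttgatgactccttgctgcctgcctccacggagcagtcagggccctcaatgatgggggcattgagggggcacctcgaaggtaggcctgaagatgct
Slc3a2: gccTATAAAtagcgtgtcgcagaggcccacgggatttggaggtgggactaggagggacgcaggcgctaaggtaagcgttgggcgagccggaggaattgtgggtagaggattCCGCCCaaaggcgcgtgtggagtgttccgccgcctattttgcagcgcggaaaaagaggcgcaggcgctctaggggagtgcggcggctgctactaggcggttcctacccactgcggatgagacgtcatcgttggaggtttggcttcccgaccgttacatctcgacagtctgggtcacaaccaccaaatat
The Cdkn1a stretch holds 1 p53 half-site, GAACATGTCT, whose first base is 201 bases before the start, and none of the other motifs. The Slc3a2 stretch holds 1 GC box, on the other strand, and 1 TATA box. The Rcc1 stretch holds none of the 4.

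Cdkn1a, the cell cycle inhibitor p21 and a target of p53, rose while its neighbour was not called. It held 548, 545, 561, 713 and 593 FPKM with doxorubicin, against 79.4, 87.1, 95.6, 85.2 and 84.8 FPKM with PBS, a log2 fold change of 2.74 ± 0.11 (SE; adjusted p = 1.37e-13). ENSRNOG00000070630, whose start lies 46 bases away at chr20:7144999-7149171 (minus strand), held 2.98, 3.29, 5.39, 5.12 and 3.35 FPKM with doxorubicin, against 3.39, 3.14, 2.63, 3.32 and 3.75 FPKM with PBS. Its groups overlapped (0.32 ± 0.20, adjusted p = 0.209). The ratio of the noncoding to the coding level was 0.00544 to 0.00961 with doxorubicin and 0.0275 to 0.0442 with PBS.

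Rcc1, the exchange factor of the nuclear transport protein Ran, fell while its neighbour rose. ENSRNOG00000065587, 127 bases away, held 7.65, 8.54, 9.57, 17.7 and 9.0 FPKM with doxorubicin, against 5.96, 5.52, 5.40, 5.73 and 6.13 FPKM with PBS (0.85 ± 0.20, adjusted p = 0.00157). Rcc1 held 5.55, 6.01, 6.63, 5.53 and 5.50 FPKM with doxorubicin, against 10.6, 8.90, 12.6, 11.9 and 13.1 FPKM with PBS (-1.16 ± 0.16, adjusted p = 7.97e-06). Both pairs of groups were apart, with replicate 4 far the highest of the first; without it the log2 rise was 0.51 (adjusted p = 0.000356). With both compounds against histidine the noncoding gene was not called (0.02, adjusted p = 0.948), and Rcc1 fell by 0.96.

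Slc3a2, the heavy chain of amino acid exchangers that carry large neutral amino acids, lies 274 bases from ENSRNOG00000067892, which holds 4 small nucleolar RNA genes of the table within its span. The noncoding gene held 54.3, 54.1, 50.3, 60.3 and 59.6 FPKM with doxorubicin, against 49.0, 44.3, 42.4, 41.9 and 46.4 FPKM with PBS, and rose by 0.27 (adjusted p = 0.0136). Slc3a2 held 101, 103, 81.9, 124 and 106 FPKM with doxorubicin, against 128, 128, 119, 127 and 135 FPKM with PBS, and fell by 0.34 (adjusted p = 0.0126). Of the 4 genes that hold small nucleolar RNA genes, this was the one called with doxorubicin against PBS; with both compounds against histidine 0 were called (1 at an unadjusted p under 0.05).

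In 3 of the other 4 pairs the coding gene fell and the noncoding gene was not called with doxorubicin against PBS. Aspm, a protein of the mitotic spindle, fell by 2.76 (adjusted p = 8.25e-12), and ENSRNOG00000063731, 3255 bases away, had 4.43 ± 0.622 FPKM with doxorubicin and 3.67 ± 0.277 FPKM with PBS (0.22, adjusted p = 0.14). With both compounds against histidine ENSRNOG00000063731 was called higher (0.31, adjusted p = 0.0424). That call was lost in several settings, among them without replicate 2 of both compounds (0.18, adjusted p = 0.168). Jun, a subunit of the AP-1 transcription factor, fell by 0.95 (adjusted p = 1.91e-10), with ENSRNOG00000069893, 96 bases away, at 0.15 (adjusted p = 0.417). Hk2, a hexokinase of glycolysis, fell by 0.53 (adjusted p = 0.00521), with ENSRNOG00000067696 at 0.34 (adjusted p = 0.0773), which passed the test without PBS replicate 5 (0.46, adjusted p = 0.0203) and with library totals (0.39, adjusted p = 0.047). In the last pair ENSRNOG00000070404, 109 bases from the gene of the chromatin kinase tousled-like 2, held 4.78, 5.03, 4.20, 5.76 and 3.77 FPKM with doxorubicin, against 2.15, 2.51, 1.80, 2.64 and 2.37 FPKM with PBS. It rose by 0.99 ± 0.14 (adjusted p = 7.97e-06), and the kinase gene was not called (-0.10, adjusted p = 0.247).

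Histidine called none of the 300 genes. Against PBS, 0 passed edgeR's test and 6 (2.0%) had an unadjusted p under 0.05, beside 2.02% of all genes; DESeq2 also called 0 of the 300. The 3 smallest p-values, none past the test, were those of ENSRNOG00000021403 (84.4 ± 5.68 FPKM with histidine and 94.3 ± 4.66 FPKM with PBS), ENSRNOG00000070011 (5.07 ± 0.510 FPKM with histidine and 6.23 ± 0.680 FPKM with PBS) and ENSRNOG00000064451 (2.61 ± 0.255 FPKM with histidine and 3.12 ± 0.148 FPKM with PBS; SD, n = 5 each), with log2 differences of -0.19, -0.32 and -0.28 and an adjusted p of 1.0 each.

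Adding histidine to doxorubicin likewise called 0 of the 300, with 45 (15.0%) at an unadjusted p under 0.05 beside 12.6% of all genes, and 0 by DESeq2. The smallest p-values belonged to ENSRNOG00000064084, with 3.78 ± 0.285 FPKM with both compounds and 3.03 ± 0.489 FPKM with doxorubicin, to ENSRNOG00000070018, with 2.92 ± 0.230 FPKM with both compounds and 2.28 ± 0.264 FPKM with doxorubicin, and to ENSRNOG00000068880, with 233 ± 15.7 FPKM with both compounds and 299 ± 55.5 FPKM with doxorubicin (SD, n = 5 each). Their log2 differences were 0.29, 0.33 and -0.40, with an adjusted p of 0.393 each. For the interaction, the change in the drug's effect when histidine was present, edgeR and DESeq2 called 0 of the 300, and 17 (5.67%) had an unadjusted p under 0.05 beside 6.86% of all genes. The smallest p-values were those of ENSRNOG00000069426 (0.69 ± 0.20), ENSRNOG00000065587 (-0.83 ± 0.28) and ENSRNOG00000070938 (-0.59 ± 0.21; log2 ± SE), each with an adjusted p of 0.631.

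Coding genes whose products work with noncoding RNAs were followed as lists. Over all genes tested, doxorubicin against PBS called 43.2%, with 21.7% higher and 21.5% lower. Both compounds against histidine called 40.2% of all genes. Of 16 paraspeckle proteins, which assemble on a nuclear noncoding RNA, 7 fell with doxorubicin against PBS and 0 rose: on the log2 scale Sfpq fell by 0.34 (adjusted p = 0.00111) and Tardbp fell by 0.27 (adjusted p = 0.00128). With library totals in place of TMM 4 of the 16 fell and 0 rose, and 10 fell and 1 rose without doxorubicin replicate 4. Of 16 nonsense-mediated decay factors edgeR called 0 with doxorubicin against PBS (2 at an unadjusted p under 0.05, 1 by DESeq2). It called 1 higher and 2 lower without doxorubicin replicate 4, and 2 higher with library totals. With both compounds against histidine 1 rose and 2 fell, and with library totals 2 rose and 0 fell. Of 12 microRNA processing proteins edgeR and DESeq2 called 0 with doxorubicin against PBS (2 at an unadjusted p under 0.05 by edgeR). Without doxorubicin replicate 4 edgeR called 2 higher, and with library totals 1 higher. With both compounds against histidine 2 rose. Of 10 imprinted coding genes that neighbour imprinted noncoding RNAs, 5 rose and 1 fell, with Cdkn1c at 1.97 (adjusted p = 1.7e-06), Igf2r at 0.52 (adjusted p = 0.000222) and Kcnq1 at -1.54 (adjusted p = 0.00266).

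Other gene lists were read in the same way with doxorubicin against PBS, beside 21.7% of all genes higher and 21.5% lower. Of 19 p53 target genes 16 rose and 2 fell, and of 18 proliferation genes 17 fell and 1 rose. Fibroblast markers split, with 3 of 16 higher and 5 lower. Of 10 endothelial markers 4 were higher and 5 lower, of 12 smooth muscle and pericyte markers 1 was higher and 9 lower, and of 7 Schwann cell and neuronal markers 2 were higher and 0 lower.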

How the data were processed

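The 20 libraries were made from poly(A) RNA by a preparation that does not keep the strand, per the labels' protocols. The deposited table holds, per the file headers, raw read counts and FPKM (fragments per kilobase, scaled to depth) per gene, computed by the authors. The submitters' processing notes name Trimmomatic and rat genome build mRatBN7.2, with the annotation release, the read aligner and the counter not given in the sources used here. No column lacked a sample and no row lacked a gene. Groups came from the sample titles.

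Counts of all 15503 genes were filtered with filterByExpr, scaled by TMM and fitted in 1 model of 4 groups with edgeR 4.0.16's quasi-likelihood test (R 4.3.3), with p-values adjusted by Benjamini-Hochberg over the 15449 genes tested, a two-sided test and a threshold of 0.05. Standard errors (SE) were taken from the fold change and its F statistic. Descriptive tables were made with Python 3.11.15, pandas 2.3.3 and numpy 2.4.6. Alternatives used DESeq2 1.42.0, other scalings, no filter, a replicate block, the groups of a comparison alone, each library left out, and limma 3.58.1 on log2(FPKM + 1) and log2(FPKM + 0.1). In simulated counts for doxorubicin against PBS over 15439 genes, the fit recovered 49.3% of 67 genes changed 1.5-fold, 79.1% of 67 changed 2-fold and 92.4% of 66 changed 4-fold, with 5 false calls. No other gene was changed there, and each gene was drawn independently. The rates need not hold in the data, where 43.2% of genes were called and doxorubicin replicate 4 stood apart. No pair of libraries of a group agreed within sampling noise (40 pairs, chi-square per degree of freedom 34.9 to 649).

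Symbols for 10362 of 14326 coding genes came from the RefSeq table of build GRCr8, used for names alone. They were matched by accession (7645), by KEGG short name without regard to case (2688) or by protein name (29). The 8 lists of named long noncoding RNAs matched 0 genes, so they gave no result. Named genes were the 10 highest, the 10 largest rises and falls with doxorubicin against PBS that were called, averaged at least 1 CPM, did not overlap between groups and were called alike with both compounds against histidine, the 3 smallest p-values where no gene was called, the 3 genes on each side of the level limit, up to 4 genes of a coding list, and nearest coding genes. Head to head pairs were added after their values were seen. The members and all lists were chosen with earlier results of these data known.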

Additional observations from a re-analysis of the deposited data

Results flagged for a closer look

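For 49 long noncoding RNA genes (196 groups of 5 libraries) and the share of reads of all 300 (4 groups), the 200 groups were looked at for a single library far from the other 4 (a gap of more than 0.71 of the group's range), and 16 groups had one. Chance flags about 5% of groups. Doxorubicin replicate 4 supplied 4 of the 16, histidine replicate 3 supplied 4 and PBS replicate 3 supplied 3.

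In doxorubicin replicate 4, ENSRNOG00000066854 stood at 225 FPKM, against 59.9 to 84.2 FPKM in the other doxorubicin libraries, and ENSRNOG00000065587, head to head with Rcc1, at 17.7 FPKM, against 7.65 to 9.57 FPKM. The same library was low for ENSRNOG00000053452, at 135 FPKM beside 176 to 182 FPKM, and for ENSRNOG00000065096 by Mlec, at 67.1 FPKM beside 106 to 110 FPKM.

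Replicate 3 with histidine and replicate 3 with PBS were high at Pappa. ENSRNOG00000066444 held 16.2 FPKM in histidine replicate 3, with the others at 6.9 to 8.41 FPKM, and 12.0 FPKM in PBS replicate 3, with the others at 7.64 to 8.47 FPKM. In histidine replicate 3, ENSRNOG00000052564 by Tnip1 was also high, at 122 FPKM beside 77.4 to 87.2 FPKM. ENSRNOG00000062503 by Gpc6 was low there, at 13.6 FPKM beside 23.8 to 25.5 FPKM, as was ENSRNOG00000067151 by Myocd, at 2.59 FPKM beside 4.79 to 5.49 FPKM. PBS replicate 3 was high for ENSRNOG00000070065 by Vcan, at 7.63 FPKM beside 5.67 to 6.22 FPKM, and for ENSRNOG00000070543, at 4.83 FPKM beside 2.61 to 3.25 FPKM.

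With both compounds, replicate 2 was low for ENSRNOG00000071138 by Cavin1, at 126 FPKM beside 162 to 170 FPKM, and high for ENSRNOG00000067151, at 2.27 FPKM beside 1.3 to 1.54 FPKM. Replicate 5 with both compounds was high for ENSRNOG00000067696 by Hk2, at 3.53 FPKM beside 2.82 to 3.0 FPKM. ENSRNOG00000070938 held 5.44 FPKM in histidine replicate 1, beside 4.3 to 4.49 FPKM, and ENSRNOG00000052649 held 3.93 FPKM in PBS replicate 2, beside 6.19 to 6.98 FPKM.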

How the results depend on the processing

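Over all alternatives on the 300 genes the number called stayed within 1.5 times that reported, 120 with doxorubicin against PBS and 124 with both compounds against histidine. Leaving out 1 library gave 113 to 143 genes for doxorubicin against PBS and 110 to 149 for both compounds against histidine, and the other 3 comparisons called 0 of the 300 in every setting. Among the 103 genes not past the end of a coding gene, a restriction added after seeing the data, 41 (39.8%) were called with doxorubicin against PBS, beside 43.2% of all genes, 26 of them higher, and 36 (35.0%) with both compounds against histidine, beside 40.2%, 24 of them higher. With the replicate block 119 and 122 genes were called. The titles repeat the same numbered names in every group, such as Cardiomyocytes1, without saying whether a number marks a shared cell preparation. Pairing is thus neither stated nor excluded by the labels, and same-numbered libraries were not treated as paired. Their deviations correlated at -0.07 to 0.29, above 0.1 in 4 of 30 pairs. As a hint from the data, 12 of 30 matched their own number best, 5 of them among the 6 replicate 3 pairs (0.09 to 0.29). ENSRNOG00000066854 ranged from -0.35, without doxorubicin replicate 4, to 0.39, without doxorubicin replicate 3, around its log2 fold change of 0.23, and its turn rests on that 1 library. The 49 genes followed singly were those named by rule and all 15 head to head genes, some of them not described above. For these, 965 of 980 results with 1 library left out kept their status with doxorubicin against PBS. The same held for 955 of 980 with both compounds against histidine. For a called gene this meant the same direction and call. For an uncalled gene it meant staying uncalled, whatever the direction. The call for ENSRNOG00000070938 with doxorubicin against PBS (0.45, adjusted p = 0.0201) was lost without PBS replicate 5 (adjusted p = 0.0593) or doxorubicin replicate 4 (adjusted p = 0.0611), and that for ENSRNOG00000068751 without doxorubicin replicate 4, PBS replicate 2 or PBS replicate 5. Of pairs at coding gene ends in which both genes were called with doxorubicin against PBS, 100.0% went the same way within 1 kb and within 2 kb, and 96.2% without doxorubicin replicate 4. Levels under about 1 FPKM rest on few reads, and reads of overlapping genes cannot be told apart without strand.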
